A study of Mus musculus with 6 samples.

Results

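Steroid hormones reach the uterus through a small set of receptors, and 8 genes that encode them are described here in the mouse uterus on day 4 of pregnancy. They were picked by symbol from the gene tables and are Pgr, Esr1, Esr2, Nr3c1 and Nr3c2, which encode nuclear receptors, and Pgrmc1, Pgrmc2 and Gper1, which encode membrane proteins. The tables hold 56748 genes, and 7 of these 8 receptors, all but Esr2, were among the 16737 genes with enough counts to be tested. RNA was taken at 1600 h, and 6 libraries were made, 3 of control uterus labelled wild type (WT) and 3 of uterus labelled Zip10 cKO. Zip10, encoded by Slc39a10, is a plasma membrane zinc importer, and cKO stands for a conditional knockout that the series design places in the uterus. The sample labels call the tissue uterus and the series design calls it endometrium, the lining without the muscle wall. For age, strain, the Cre line and the deleted part of the gene, nothing was given in the sources used here. As background, many uterine knockouts are made with a Cre placed in the Pgr gene itself. Whether each library stands for its own animal is not said in the labels, and the p-values below therefore measure the spread between these samples and no more.

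The nuclear receptors are transcription factors that sit in the cell with heat shock chaperones until a steroid binds, and then act at hormone response elements in DNA. Pgr is the receptor for progesterone, Esr1 and Esr2 are the oestrogen receptors alpha and beta, Nr3c1 is the glucocorticoid receptor, and Nr3c2 is the mineralocorticoid receptor. Pgrmc1 and Pgrmc2 are small haem-binding membrane proteins linked to progesterone signalling and to sterol metabolism, and Gper1 is a G protein-coupled receptor through which oestrogen is reported to act. In early mouse pregnancy, oestrogen drives the epithelium to divide, and progesterone then halts that division and readies the stroma for the embryo. Both hormones work through the receptors of the epithelium and of the stroma beneath it, and Pgr is itself under oestrogen control.

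The libraries held between 19643069 and 22809574 counts. The library of cKO replicate 1 stood apart on the first axis of a scaling plot (-1.58, against -0.02 to 0.77 in the other 5) and had the lowest mitochondrial share, 3.43% against 4.50% to 4.84%. Slc39a10, the targeted gene, was at 54.6, 70.4 and 66.2 CPM (the share of a library's counts, TMM-scaled) in controls 1, 2 and 3, and at 39.5, 72.5 and 79.8 CPM in cKO 1, 2 and 3. Among the libraries labelled Zip10 cKO, cKO 1 lay below every control and cKO 2 and 3 above every control, and the fitted log2 change was 0.00 ± 0.24 (SE). Since the deleted part is not known, this gene total does not check the labels. Smooth muscle markers were present in every library, with a summed level of 5470 to 10342 TPM (a level per transcript length, scaled to a fixed sum) in controls and 9185 to 13861 TPM in cKO. The 13 stromal markers summed to 4799 to 6574 TPM in controls and to 7130 to 8724 TPM in cKO, with no overlap between the groups. The 13 epithelial markers, of which the claudin gene Cldn3 was the most abundant in controls (286 TPM), summed to 909 to 1264 TPM in controls and 765 to 1169 TPM in cKO. In whole tissue, fewer cells of a type and less RNA per cell cannot be told apart.

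The nuclear progesterone receptor Pgr and the oestrogen receptor Esr1 were abundant, Gper1 was scarce and Esr2 was near 0, and the order of the 8 genes was nearly fixed across the libraries. By mean TPM over the 6 libraries the order was Pgrmc1 (135), Esr1 (81.5), Pgrmc2 (56.1), Pgr (38.1), Nr3c1 (18.6), Gper1 (2.57), Nr3c2 (0.813) and Esr2 (0.0183). Among all tested genes, Pgrmc1 stood at the 94.9th percentile of mean TPM, Esr1 at the 91.1st and Pgrmc2 at the 86.5th. Pgr stood at the 79.4th percentile and Nr3c1 at the 61.9th, while Gper1 stood at the 22.8th and Nr3c2 at the 9.49th. The nuclear receptors of the ovarian steroids, Esr1 and Pgr, were thus among the more abundant genes, while Nr3c2 and Esr2 were the scarcest of the set.

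Each gene was compared with the next in this order inside every library, on log2(TPM + 0.1), by an exact two-sided sign-flip permutation test over the 6 libraries. The order was set by the mean of these same libraries, so the test describes how constant each step was and is no independent evidence of it. For 6 of the 7 neighbouring pairs the higher gene was higher in 6 of 6 libraries with ranges that did not meet, and each exact p was 0.031, the smallest that 6 libraries can give (0.0365 after Benjamini-Hochberg adjustment over the 7 pairs). The step was 1.67-fold from Esr1 up to Pgrmc1, 1.44-fold from Pgrmc2 up to Esr1 and 1.5-fold from Pgr up to Pgrmc2. Pgr was 2.02-fold above Nr3c1 on the same scale. The exception was Gper1 against Nr3c2, where Gper1 was higher in 5 of 6 libraries, the ranges overlapped, and the exact permutation p was 0.0938 before and after adjustment.

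**Figure D1:**
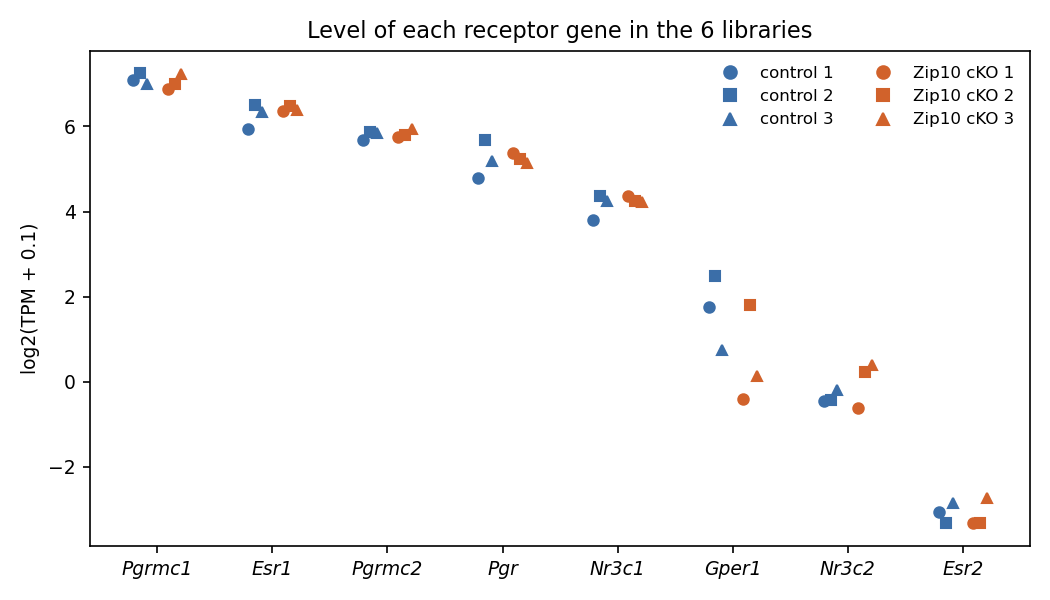
Level of each receptor gene in each library, as log2(TPM + 0.1) on the vertical axis, with blue symbols for the 3 controls and orange symbols for the 3 Zip10 cKO libraries (circle, square and triangle for replicates 1, 2 and 3). The 5 most abundant genes form separate steps, while the Gper1 and Nr3c2 points overlap and Esr2 lies at the bottom with TPM of 0 to 0.05.

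The receptors were also set against each other as ratios, each taken inside a library. Pgrmc1 exceeded Pgr by 1.84 ± 0.30 on the log2 TPM scale (SD, n = 6 libraries), and Pgr was below Esr1 by a log2 ratio of -1.11 ± 0.16. The 2 Pgrmc genes differed by 1.26 ± 0.12, a 2.40-fold higher level of Pgrmc1. Nr3c1 exceeded Nr3c2, which binds cortisol and corticosterone as well as aldosterone, by 4.39 ± 0.45, or 21-fold, with a pseudocount of 0.1, and by 3.44 on the log2 scale with a pseudocount of 1. None of these 4 ratios separated the groups, with exact permutation p-values of 0.6, 0.5, 0.4 and 0.6 in that order, where 3 against 3 cannot go below 0.1.

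Set among 48 nuclear receptor genes ranked by mean TPM, Esr1 held place 2 in every library, below Nr2f2 (143 TPM), the orphan receptor COUP-TFII of uterine stroma. Nr1h2 (55.3 TPM), Thra (43.4) and Nr2f6 (41.3) came next, and Pgr held place 6 on average and places 4 to 8 in single libraries. Nr3c1 held place 13 and ranged from 12 to 15. Nr3c2 was at place 33, never outside 32 to 34, and Esr2 at place 46. These 5 receptors therefore spanned almost the whole order of the family in this tissue.

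**Figure D2:**
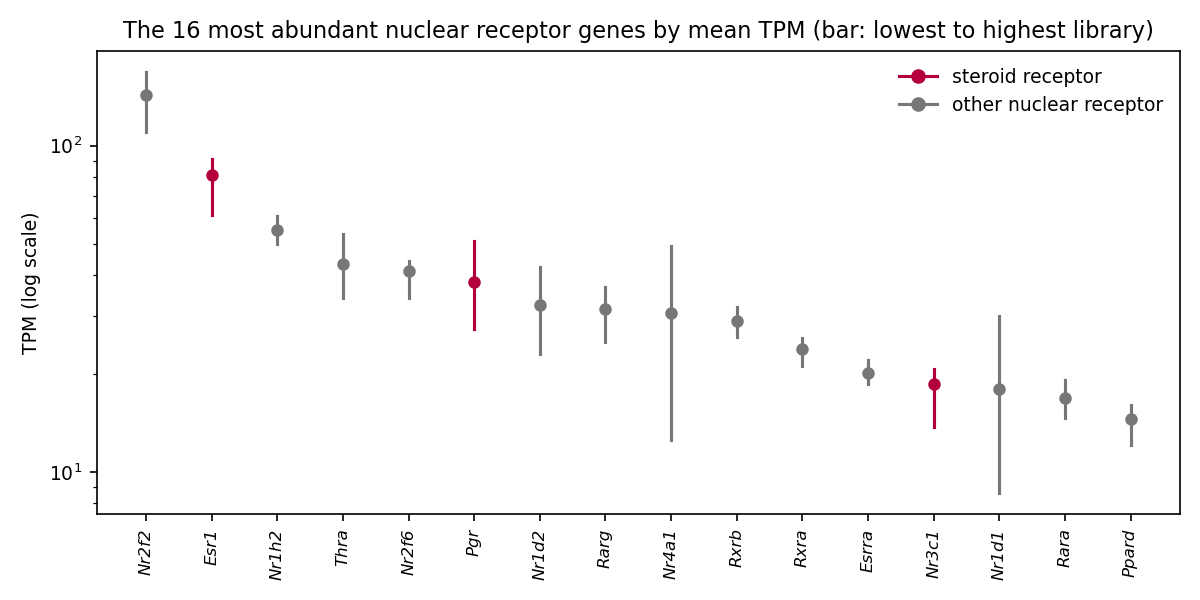
Mean TPM (log axis) of the 16 most abundant nuclear receptor genes, with bars from the lowest to the highest of the 6 libraries and steroid receptors of the described set in red. Esr1 is at place 2 with 81.5 TPM, Pgr at place 6 with 38.1 TPM and Nr3c1 at place 13 with 18.6 TPM.

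The RefSeq promoter windows of these genes, 250 bases before to 50 bases after the annotated start, were read on GRCm38.p6, an earlier build than the GRCm39 of the gene tables. 8 windows matched 7 of the 8 genes, with 2 for Esr1 and none for Nr3c1. The windows of Pgrmc1 and Pgrmc2 are shown because these genes, with Esr1, varied least between libraries, and those of Pgr, Nr3c2 and Gper1 because these varied most. Capitals mark CG dinucleotides, the site of DNA methylation in mammals, and each line runs 5′ to 3′ on the strand of the gene. The windows are Pgrmc1 at chrX:36597943-36598242 on the plus strand, Pgrmc2 at chr3:41082997-41083296 on the minus strand, Pgr at chr9:8899583-8899882 on the plus strand, Nr3c2 at chr8:76902080-76902379 on the plus strand and Gper1 at chr5:139422929-139423228 on the plus strand.
Pgrmc1: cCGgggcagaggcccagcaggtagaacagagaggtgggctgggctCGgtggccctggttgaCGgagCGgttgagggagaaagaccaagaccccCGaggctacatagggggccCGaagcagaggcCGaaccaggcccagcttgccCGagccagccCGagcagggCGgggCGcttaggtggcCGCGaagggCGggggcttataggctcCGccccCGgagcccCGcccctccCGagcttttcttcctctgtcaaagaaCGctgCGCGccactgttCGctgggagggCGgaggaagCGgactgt
Pgrmc2: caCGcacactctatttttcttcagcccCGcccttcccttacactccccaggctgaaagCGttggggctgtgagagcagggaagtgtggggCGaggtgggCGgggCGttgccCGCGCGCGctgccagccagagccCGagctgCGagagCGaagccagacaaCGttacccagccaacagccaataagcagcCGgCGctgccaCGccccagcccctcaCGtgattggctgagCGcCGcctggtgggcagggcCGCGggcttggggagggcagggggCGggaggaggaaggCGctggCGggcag
Pgr: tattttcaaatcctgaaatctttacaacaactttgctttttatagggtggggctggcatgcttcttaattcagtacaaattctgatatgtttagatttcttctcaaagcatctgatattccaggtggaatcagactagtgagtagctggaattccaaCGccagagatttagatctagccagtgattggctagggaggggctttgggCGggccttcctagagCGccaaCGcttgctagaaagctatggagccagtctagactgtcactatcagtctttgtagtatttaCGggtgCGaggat
Nr3c2: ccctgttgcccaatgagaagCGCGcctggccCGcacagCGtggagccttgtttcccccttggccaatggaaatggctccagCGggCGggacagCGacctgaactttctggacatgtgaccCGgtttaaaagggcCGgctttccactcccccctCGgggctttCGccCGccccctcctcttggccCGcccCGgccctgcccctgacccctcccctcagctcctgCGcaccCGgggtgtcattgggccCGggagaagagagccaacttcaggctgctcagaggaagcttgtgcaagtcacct
Gper1: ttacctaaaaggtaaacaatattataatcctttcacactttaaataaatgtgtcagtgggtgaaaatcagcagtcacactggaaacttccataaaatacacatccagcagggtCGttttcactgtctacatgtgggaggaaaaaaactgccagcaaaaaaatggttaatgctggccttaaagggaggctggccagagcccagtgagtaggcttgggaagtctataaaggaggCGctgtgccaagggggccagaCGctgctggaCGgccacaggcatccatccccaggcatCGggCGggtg

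The Pgrmc windows held 24 CG dinucleotides in Pgrmc1 and 25 in Pgrmc2, at a GC content of 69.0% and 69.3%. Of all windows, 80% held fewer CG than Pgrmc1 and 81.6% fewer than Pgrmc2. The Pgr and Gper1 windows held 6 CG each, at a GC content of 43.7% and 48.3%, close to the median of 7 CG over all 32841 promoter windows. Both of these also held the letters TATAAA once on either strand, as did 13.6% of all windows, and neither Pgrmc window did. The GC box letters GGGCGG, searched on both strands, occurred 5 times in Pgrmc1, 3 times in Pgrmc2 and once each in Pgr and Gper1, against 35.7% of windows with any. Nr3c2, which varied more than Pgr, had 17 CG at a GC content of 65.7% and the GC box letters 3 times. Esr2 had 14 CG. The 2 windows of Esr1, which varied slightly less than Pgrmc1, had 6 and 12. The letters TGTTCT, the core shared by progesterone and corticoid response elements, occurred in the Pgrmc1 window alone among the 8 windows and in 19.0% of all windows. Such matches describe letters and are not shown to be used sites.

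The main comparison asked whether any receptor differed in level between Zip10 cKO and control uteri. In the quasi-likelihood test of edgeR, 0 of the 7 tested receptors reached an adjusted p under 0.05, where 0% of the 16737 tested genes did. DESeq2 and limma-voom also called 0 of the receptors. At an unadjusted p under 0.05 there were 0 of 7 receptors, against 6.46% of all tested genes. The 3 cKO libraries lay on one side of all 3 controls for 0 of 7 receptors, against 12.7% of all tested genes. Fitted log2 changes were higher in cKO for 3 receptors and lower for 4, with a median of -0.05, and over all tested genes the median was -0.00. For Pgr, Esr1, Nr3c1, Pgrmc1 and Pgrmc2 the 95% intervals of the fold stayed between 0.680 and 1.26, and for the scarce Nr3c2 and Gper1 they were much wider.

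Pgr (ENSMUSG00000031870), which carries the response to progesterone, was at 144, 245 and 177 CPM in controls 1, 2 and 3 and at 176, 178 and 160 CPM in cKO 1, 2 and 3. The cKO values were close together and lay inside the range of the controls, whose lowest and highest libraries were replicates 1 and 2. Mean CPM was 189 ± 51.6 in controls and 171 ± 10.1 in cKO (SD over 3 libraries). The fitted fold, cKO over control, stood at 0.906 with bounds of 0.680 and 1.21 (95% interval, edgeR adjusted p 0.865), and the exact two-sided permutation p for CPM was 0.8. On the per-length scale the means were 38.2 and 37.9 TPM. The sign turned with a single library: without control 2 the fitted log2 change was 0.09, against -0.14 with all libraries.

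Esr1 (ENSMUSG00000019768), the main oestrogen receptor of uterine epithelium and stroma, was at 300, 393 and 356 CPM in controls 1, 2 and 3 and at 330, 393 and 354 CPM in cKO 1, 2 and 3. The groups overlapped nearly completely, with control 1 and cKO 1 the lowest of their groups. The means were 350 ± 46.9 and 359 ± 31.6 CPM. The fold was 1.03 (95% interval 0.837 to 1.26, edgeR adjusted p 0.956), and the exact permutation p was 1. Its sign also turned when control 1 (-0.07) or cKO 2 (-0.03) was left out.

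Esr2 (ENSMUSG00000021055), the oestrogen receptor beta that is abundant in ovary, was not detected above the counting floor. The controls held 1, 0 and 2 counts of it and the cKO libraries 0, 0 and 2. A count of 0 allows up to 3 counts, which is 0.132 to 0.149 CPM in these libraries and covers counting error only. Both groups were at or under that floor, so no fold is given.

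Nr3c1 (ENSMUSG00000024431), the receptor for corticosterone, was at 69.0, 93.7 and 86.7 CPM in controls 1, 2 and 3 and at 87.0, 84.3 and 79.2 CPM in cKO 1, 2 and 3. As with Pgr and Esr1, control 1 was the lowest of all 6 libraries, control 2 the highest of the controls, and the cKO libraries lay between. The means were 83.1 ± 12.7 and 83.5 ± 3.94 CPM, a fold of 1.00 (95% interval 0.827 to 1.22, edgeR adjusted p 0.994).

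Nr3c2 (ENSMUSG00000031618), the aldosterone receptor, rested on 67, 54 and 72 counts in controls and 48, 102 and 101 counts in cKO. That is 2.94, 2.67 and 3.4 CPM in controls 1, 2 and 3, against 2.28, 4.69 and 5.02 CPM in cKO 1, 2 and 3. cKO 1 was the lowest of all libraries and cKO 2 and 3 the highest, so the groups overlapped. The fold was 1.33 with a 95% interval of 0.803 to 2.20 (edgeR unadjusted p 0.232, adjusted 0.786). Without cKO 1, the library that stands apart, the log2 change was 0.69 in place of 0.41, with an unadjusted edgeR p of 0.0164 and an adjusted p of 0.989.

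Among the membrane proteins, Pgrmc1 (ENSMUSG00000006373), a partner of cytochrome P450 enzymes, was at 189, 193 and 165 CPM in controls 1, 2 and 3 and at 145, 166 and 187 CPM in cKO 1, 2 and 3. The groups overlapped, and the means were 182 ± 15.4 and 166 ± 20.9 CPM. The fold was 0.910 (95% interval 0.749 to 1.11, edgeR adjusted p 0.815), and the exact permutation p was 0.3. Pgrmc2 (ENSMUSG00000049940), its close relative, was the steadiest of the set, with control libraries at 109, 111 and 112 CPM and cKO libraries at 99.9, 105 and 115 CPM. Its fold was 0.963 (95% interval 0.831 to 1.12, edgeR adjusted p 0.904).

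Gper1 (ENSMUSG00000053647), the membrane oestrogen receptor, varied most. It had 147, 199 and 42 counts in controls 1, 2 and 3 and 24, 135 and 35 counts in cKO 1, 2 and 3, which is 6.46, 9.83 and 1.98 CPM against 1.14, 6.21 and 1.74 CPM. Controls 1 and 2 and cKO 2 were high, and control 3 and cKO 1 and 3 were low, so that each group held both levels. The fitted fold was 0.50 with a 95% interval of 0.156 to 1.61 (edgeR unadjusted p 0.206, adjusted 0.780), and the exact permutation p was 0.2. The log2 change of -1.0 moved with single libraries, to -0.48 without control 2, -0.61 without cKO 1, -1.43 without control 3 and -2.08 without cKO 2. In the fit without cKO 2 the unadjusted edgeR p was 0.0154 and the adjusted p 0.511.

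**Figure D3:**
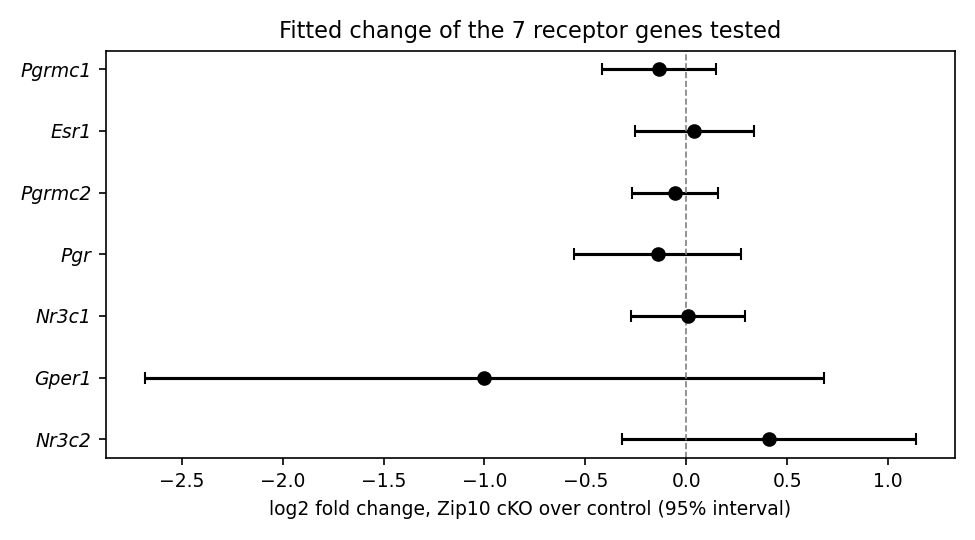
Fitted log2 fold change of cKO over control for the 7 receptor genes tested (points) with 95% intervals (bars) from the edgeR quasi-likelihood fit. All 7 intervals cross 0, and that of Gper1 is the widest, around a log2 change of -1.0.

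The spread between libraries, taken as the range of log2 CPM (prior count of 3) over all 6, ordered the receptors in another way from their level. It was 0.20 for Pgrmc2, 0.39 for Esr1, 0.42 for Pgrmc1, 0.44 for Nr3c1, 0.77 for Pgr, 1.09 for Nr3c2 and 2.96 for Gper1. Pgr therefore varied more than the less abundant Nr3c1, and Gper1 more than the still scarcer Nr3c2. For each receptor, the genes with the most similar course over the 6 libraries were found by the root mean square (RMS) difference of centred log2 CPM, among about 10426 genes of at least 10 CPM. Courses over 6 libraries share library, depth and tissue makeup, and likeness here is a description.

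Gper1 ran closest to Calb1, which encodes the calcium-binding protein calbindin-D28k (RMS difference 0.36), and to Gldc, the glycine decarboxylase of mitochondria (0.41). Calb1 was at 313, 344 and 85.9 CPM in controls 1, 2 and 3 and at 98.9, 271 and 89.1 CPM in cKO 1, 2 and 3. Gldc stood at 22.3, 20.7 and 5.10 CPM in the same controls, and in the cKO libraries at 6.42, 20.6 and 5.46 CPM. Both genes split the libraries as Gper1 did, with controls 1 and 2 and cKO 2 high and the other 3 low. The summed epithelial markers were also highest in those 3 libraries, at 1264, 1219 and 1169 TPM, and lowest in control 3 (909), cKO 1 (765) and cKO 3 (1004). The smooth muscle sum was lowest in the same 3, at 5720, 5470 and 9185 TPM, against 10342, 13861 and 9589 TPM. So was the ovary and oviduct sum, at 39.6, 36.8 and 38.1 TPM against 42.0, 50.2 and 52.2 TPM. The stromal, endothelial, macrophage, lymphocyte and red blood cell sums did not split the libraries in this way. The part of these cell types in the spread of Gper1 was not tested.

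The RMS differences were smaller for the other receptors, whose own ranges were smaller too, so they do not rank how good the matches were. Esr1 ran with Ccdc6 and Ctdspl (RMS 0.01 and 0.02 in log2 CPM), Pgrmc2 with Arl6ip5 and Lztr1 (0.02 each), and Pgrmc1 with Brf1 and Pak1 (0.02 and 0.03). Nr3c1 ran with Zfp597 and Klf6, a Krüppel-like transcription factor (0.04 each), and Pgr with Arap2 and Ednrb, the endothelin receptor type B (0.08 each). Nr3c2 ran with Prom1, an apical membrane protein of epithelium that is also among the epithelial markers used here (0.13), and with Pamr1 (0.17). Prom1 stood at 142, 148 and 198 CPM in the controls and at 121, 292 and 248 CPM in the cKO libraries, so that it too had cKO 2 and 3 highest and cKO 1 lowest. Prom1 did not stand for the epithelial list: of its 13 markers, 3 were higher in cKO, Prom1 among them, and 10 were lower. Their summed level was lowest in cKO 1 too (765 TPM) but highest in control 1 (1264 TPM).

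**Figure D4:**
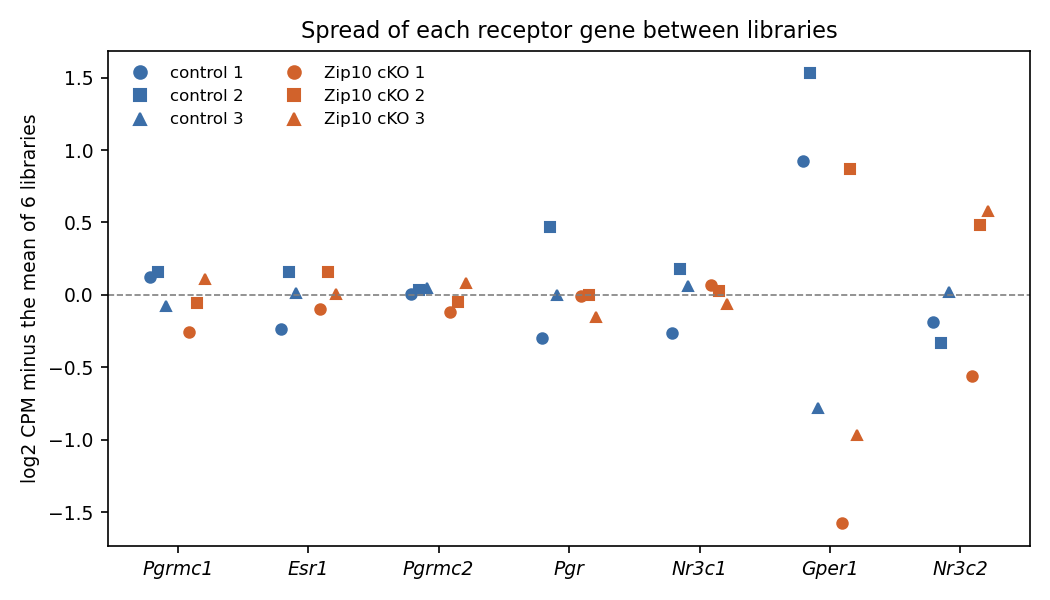
Log2 CPM of each receptor gene in each library minus its mean over the 6 libraries, with receptors ordered by mean TPM and symbols for replicates 1 (circle), 2 (square) and 3 (triangle) of control (blue) and Zip10 cKO (orange). Pgrmc2 runs from -0.12 to 0.08 and Gper1 from -1.58 to 1.53, and each group has points above and below 0 for Gper1.

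The tables also give, per library, the mean length of a gene's transcripts weighted by the share each was estimated to contribute, which moves when the mixture of transcripts moves. For Pgr it was 6486, 6465 and 6459 bases in controls 1, 2 and 3 and 6023, 6256 and 6181 bases in cKO 1, 2 and 3. All 3 cKO values were below all 3 controls, with a mean difference of -316.6 bases (6470 ± 14.7 against 6153 ± 119). The exact two-sided permutation p was 0.1, the smallest that 3 against 3 allows, so this design cannot place the difference past 0.05. Among the 13443 tested genes with several transcripts and a varying length, 6.38% were shorter in all 3 cKO libraries and 6.43% were longer in all 3. Leaving out any library moved the Pgr difference between -368 and -251 bases, a check chosen after seeing the data. GENCODE M21 lists 4 Pgr transcripts, of 6889, 3897, 3068 and 3068 bases. The values of all 6 libraries, control and cKO, lie nearest to the longest of them. The annotation behind the tables, not given in the sources used here, may differ.

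Nr3c1 showed the same pattern, at 6176, 6130 and 6034 bases in controls and 5916, 5870 and 5829 bases in cKO. The difference was -241.8 bases, with an exact permutation p of 0.1 and a range of -282 to -210 bases when any library was left out. Esr1 had overlapping groups, with means of 5896 ± 128 and 5750 ± 85.4 bases and an exact permutation p of 0.2. Nr3c2 and Pgrmc2 overlapped too, each with an exact permutation p of 0.6, and Pgrmc1 has a single transcript of 1857 bases. Gper1 was at 2537 bases in 5 libraries and at 1801 bases in control 3, on 42 counts. Among the genes with several transcripts, the length ratio of Pgr stood at the 11.4th percentile, that of Nr3c1 at the 14.4th and that of Esr1 at the 21.3rd, counted from the most shortened. By size alone, ratios near these were thus common among these genes, which were not matched to the receptors by count.

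**Figure D5:**
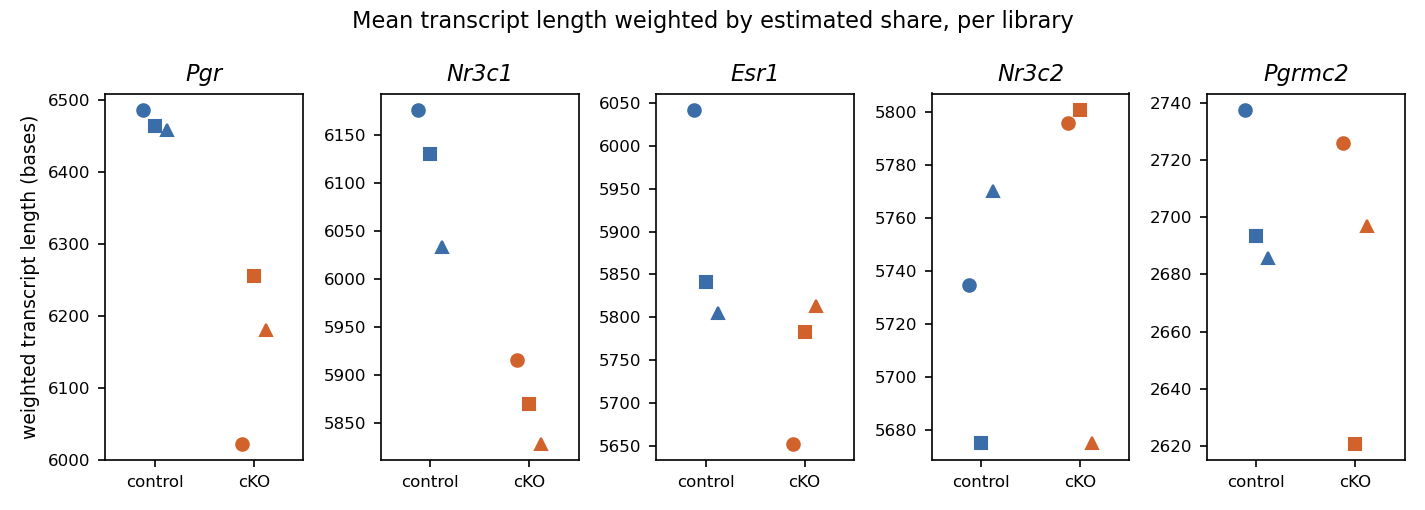
Transcript length in bases, weighted by estimated share, for 5 receptor genes in controls (blue) and Zip10 cKO (orange), with circle, square and triangle for replicates 1, 2 and 3. The axes differ between panels and do not start at 0. Pgr and Nr3c1 show no overlap between groups, with mean differences of -316.6 and -241.8 bases.

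Genes that work with the receptors were described by counts from lists chosen with earlier results of these data known. No member of these lists reached an adjusted p under 0.05 in edgeR. Of 30 tested nuclear receptors outside the set, 18 had a higher and 12 a lower fitted level in cKO, with a median log2 change of 0.04. The lowest p among them was that of Rorb, an orphan receptor, at 21.7 ± 3.25 CPM (control) and 15 ± 0.907 CPM (cKO; edgeR unadjusted p 0.00579, adjusted 0.747). Nr2c2, the testicular receptor TR4, was at 40.4 ± 8.83 and 54.1 ± 3.07 CPM (edgeR unadjusted p 0.0282). The 7 further membrane steroid-binding genes, the Paqr progestin receptors with Nenf and Cyb5d2, split 3 higher and 4 lower around a median of -0.04. Nenf, a haem-binding relative of Pgrmc1, was the most abundant of these at 134 TPM in controls and 135 TPM in cKO.

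The 15 chaperones and co-chaperones that hold steroid receptors ready for hormone were lower in cKO for 14 genes and higher for 1. Of the 16737 tested genes, 8463 were lower and 8274 higher. The median log2 change was -0.21 for the chaperones and -0.00 for all genes tested. Fkbp4, the FKBP52 co-chaperone of Pgr, had a control mean of 355 ± 61.2 CPM and a cKO mean of 264 ± 52.3 CPM, a log2 change of -0.42 ± 0.17 (SE, edgeR unadjusted p 0.0365, adjusted 0.747), with overlapping groups. Stip1, which hands receptors from Hsp70 to Hsp90, was at -0.34 ± 0.18, St13 at -0.21 ± 0.12 and Dnaja1 at -0.23 ± 0.14. Of 15 genes, 1 was under an unadjusted edgeR p of 0.05, a share near the 6.46% of all tested genes. Groups were separate for 0 of the 15, against 12.7% of all tested genes. The summed chaperone level overlapped, at 4395 to 6422 TPM in controls, with control 2 the highest, and 4081 to 5197 TPM in cKO. Among 18 coregulators and partner factors, 14 were higher and 4 lower, with a median of 0.11. Med1, a Mediator subunit that binds nuclear receptors, was at 0.19 ± 0.09 with separate groups, and Sox17, a partner of Pgr in the epithelium, was at -0.36 ± 0.18 with overlapping groups.

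Enzymes that make or remove the ligands were listed together with Star and H6pd, which serve such enzymes. Of the 16 genes matched, 9 passed the count filter. Among these 9, 8 were higher and 1 lower in cKO, with a median log2 change of 0.28. Hsd11b2, which inactivates corticosterone and so guards the mineralocorticoid receptor, was abundant, with a control mean of 269 ± 56.1 CPM and a cKO mean of 198 ± 33.5 CPM (log2 change -0.44 ± 0.18, edgeR unadjusted p 0.0391, adjusted 0.747). Hsd11b1, which regenerates corticosterone, was scarce at 2.42 ± 0.382 and 3.12 ± 0.847 CPM. H6pd, which supplies the cofactor of Hsd11b1, was at 92.4 ± 10.4 and 128 ± 32.7 CPM (edgeR unadjusted p 0.0295). Star, which moves cholesterol into mitochondria, was at 11.2 ± 0.888 and 14.6 ± 1.89 CPM with separate groups (edgeR unadjusted p 0.0346). The 3 corticoid enzymes and both corticoid receptors overlapped between the groups.

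Genes known to respond to each receptor were counted in the same way. The lists share members, among them Fkbp5, Lcn2, Sgk1 and Tsc22d3, so their counts are not separate readouts of each receptor. Of 17 progesterone targets, 13 were lower and 4 higher in cKO, with a median log2 change of -0.23; 4 were lower at an unadjusted edgeR p under 0.05, and 6 were lower with separate groups. Over all tested genes these shares were 1.98% and 5.78%. The list was chosen with earlier results of these data known, so these counts are no independent evidence of a change in progesterone targets. The summed level of the 17 targets overlapped between groups, at 1090 to 1159 TPM in controls and 868, 998 and 1102 TPM in cKO 1, 2 and 3. Fst, the activin antagonist follistatin, averaged 89.6 ± 2.84 CPM in the control and 69.4 ± 4.24 CPM in the cKO libraries, and Hand2, a stromal transcription factor, 93.4 ± 0.560 and 78.2 ± 6.59 CPM (edgeR unadjusted p 0.00291 and 0.0244, adjusted 0.747 each). Ihh, the epithelial hedgehog ligand, averaged 78.8 ± 3.62 and 53.8 ± 13.6 CPM with separate groups, and Acod1, which makes itaconate, 158 ± 68.1 and 78.0 ± 16 CPM with overlapping groups (edgeR unadjusted p 0.0134 and 0.0170, adjusted 0.747 each). Of 13 oestrogen targets, 7 were higher and 6 lower around a median of 0.07, and Pgr itself is counted among the 6 lower. Greb1, a cofactor of oestrogen receptor alpha, was at 15.3 ± 3.49 and 24.8 ± 6.86 CPM with separate groups (edgeR unadjusted p 0.0152, adjusted 0.747). Of 16 glucocorticoid targets, 9 were higher and 7 lower around a median of 0.12. Zbtb16, the zinc finger protein PLZF, was at 32.4 ± 6.47 and 40.9 ± 0.570 CPM, and Mt2, a metallothionein that zinc induces as well, at 182 ± 47.2 and 116 ± 10.8 CPM. Of 7 mineralocorticoid targets, 3 were higher and 4 lower, and Sgk1, the kinase induced by aldosterone, was at 49.9 ± 12.6 and 68.6 ± 26.0 CPM with overlapping groups. High shares were not particular to the progesterone targets. Of 13 stromal markers, 7 were higher at an unadjusted edgeR p under 0.05 and 7 were higher with separate groups. For the 13 oestrogen targets these counts were 2 and 2, and for all 16737 tested genes 749 and 1160.

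Cell type markers are given beside these lists by fitted level, and their part in the counts was not tested. Of 13 epithelial markers 10 were lower in cKO (median log2 change -0.25), and of 13 stromal markers 10 were higher (0.43). All 12 smooth muscle markers were higher (0.53), as were all 10 macrophage markers (0.57) and 9 of 10 tested lymphocyte markers (0.63). Groups were separate for only 2 of these smooth muscle, 1 of these macrophage and 3 of these lymphocyte markers. The macrophage sum was 426 to 584 TPM in controls and 1047, 464 and 666 TPM in cKO 1, 2 and 3. The smooth muscle sum of control 3 (10342 TPM) lay above those of cKO 2 and 3 (9185 and 9589 TPM). Of 12 endothelial markers, 11 were lower (-0.13), 2 of them with separate groups. All 5 red blood cell genes were higher (0.32), and of the ovary and oviduct genes 4 of 9 were tested, 2 higher and 2 lower, with 2 listed at 0 in every library. No marker reached an adjusted p under 0.05 in edgeR.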

How the data were processed

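Poly(A) RNA of the uterus was sequenced in 3 control and 3 Zip10 cKO libraries, grouped by their titles. Per the submitters' processing notes, the tools were RSEM 1.3.3, STAR 2.7.10a, fastp 0.23.2, edgeR 3.38.4 and R 4.2.1, with GRCm39. Annotation, strand setting and parameters: not given in the sources used here. RSEM gene tables were deposited by the authors with expected counts, in which shared reads are split between genes, and, per the file headers, TPM and gene lengths. Without a known strand setting, reads of Nr3c2 and the overlapping antisense Gm10649 (247 shared bases, 3 against 444 counts over 6 libraries) cannot be told apart.

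Symbols came from GENCODE M21 (52073 of 56748 IDs, 91.8%); of 238 listed genes only Sts did not match. Expected counts were rounded, filtered by filterByExpr (minimum count 10, total 15), scaled by TMM and compared with edgeR 4.0.16's quasi-likelihood test (R 4.3.3, robust, Benjamini-Hochberg over 16737 genes, threshold 0.05, two-sided). SEs came from the F statistic; intervals are 95%. Levels were compared between genes as TPM. Likeness used a prior count of 3. The scripts were tested on simulated data. Of 50 changes simulated at each size in well-counted genes, the edgeR test recovered 20% at 1.5-fold, 74% at 2-fold and 94% at 4-fold. The genes named are the 8 receptors, Slc39a10, the members of lowest p in each list (at most 4), marker genes and the 2 nearest courses per receptor of at least 10 CPM; Nr2f2, Nr1h2, Thra and Nr2f6 were named for their rank after it was seen, and so was Nenf for its level. Members and lists were chosen with earlier results of these data known. Alternatives were DESeq2 1.42.0, limma-voom and limma-trend (limma 3.58.1), other scalings and filters, TPM pseudocounts of 1 and 0.1, a replicate block, removal of a length trend (loess, span 0.5) and leaving out each library. Figures used matplotlib 3.10.9.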

Additional observations from a re-analysis of the deposited data

How the results depend on the processing

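None of the receptors was called in any of the 16 alternatives, among them DESeq2, limma-voom and each library left out. Over all genes DESeq2 called 37 of 28980, edgeR without a filter on low counts 15, edgeR without cKO 1 2, and the others 0. Gper1, Nr3c2 and Pgrmc1 kept their direction in all 16 alternatives, and changes near 0 turned sign in some. On TPM, Pgr was at a log2 change of 0.031 with a pseudocount of 1 and 0.033 with 0.1, and Pgrmc2 at 0.024 and 0.025; there the median of all genes also shifted to 0.05 and 0.06. With each library's length trend removed, Esr1 was at -0.080, Nr3c1 at -0.12 and Pgr at -0.26. Nr3c1 was at -0.0089 with upper quartile scaling and -0.0034 with a filter of 1 CPM. Leaving out single libraries gave -0.31 to 0.090 for Pgr, -0.068 to 0.13 for Esr1 and -0.12 to 0.10 for Nr3c1. The cause of these turns was not tested. The log2 ratio of Nr3c1 to Nr3c2 was 3.44 with a pseudocount of 1 in place of 4.39. Deviations of same-numbered libraries correlated at 0.09, 0.25 and 0.19, and those of differently numbered ones at -0.33 to 0.12. The labels do not state that equal numbers share an animal, litter or day, so the numbers were not taken as pairs. These correlations do not decide whether they should be. The replicate block called 0 genes and gave Pgr -0.11 and Gper1 -1.09 ± 0.43 (edgeR unadjusted p 0.0437, adjusted 0.614). Counts were lowest for Esr2, at 0 to 2 per library.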
